A study of Danio rerio with 8 samples.

Results

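The numbered znf genes are the zebrafish genes whose symbol is znf followed by a number, a label that nomenclature gives to genes encoding zinc finger proteins with no more specific family name. They were taken as every row of the authors' deposited expression table with a single gene name that, written in lower case, begins with znf and a digit. This gave 93 of the table's 33843 loci, carrying 92 distinct symbols, 23 of them written in capitals in the table. The rule left out 3 rows that join such a symbol with another name or spelling. The symbols describe a name and not a shared function, and the members encode proteins as different as ribosome assembly factors, RNA-binding proteins and transcription factors.

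A zinc finger is a short protein fold held together by a zinc ion. In the commonest form, the C2H2 finger, pairs of cysteines and histidines bind the metal and the fold reads a few bases of DNA, or in some proteins RNA or another protein. Proteins with many such fingers in a row form the largest class of DNA-binding proteins in vertebrate genomes, and the early embryo inherits many of their transcripts from the egg.

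Embryos were whole zebrafish at the dome stage, a blastula stage soon after zygotic transcription begins. One group received SU5402, a kinase inhibitor of fibroblast growth factor (FGF) receptors, at 20 µM from the 2-cell stage, and the control group received the same volume of its solvent dimethyl sulphoxide (DMSO), with 2 RNA-seq samples per group. The labels name no strain, no transgene and no clutch, and nothing says whether replicates came from separate clutches. The 4 ATAC-seq samples of the series were not analysed here.

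The authors' deposited table gives 1 FPKM value (fragments scaled to transcript length and to the size of the library) per locus and condition, pooled over both samples, so no value below carries a replicate error, the depth of each sample is unknown, and no test across samples could be run. Their p and their q, which is given as the p adjusted for multiple testing, are used as deposited, and a locus is named called where q is at most 0.05. At the largest called p, 0.0151, the deposited q was 0.04996, while a Benjamini-Hochberg adjustment over all tested loci gives 0.268. The calls are thus more permissive than that adjustment at 0.05. In this table the FGF response transcripts dusp6 (18.2 to 2.13 FPKM) and etv4 (20.3 to 6.41 FPKM) were called lower in SU5402. The blastoderm markers pou5f1 (461 FPKM in control, 405 in SU5402) and nanog (1106 and 1178 FPKM) were abundant. Other blastoderm markers were sox3 (68.2 and 56.5 FPKM), vox (68.0 and 62.4 FPKM) and vent (20.1 and 9.85 FPKM, q = 0.311). None of these was called, and ved was not listed. The markers of later cell types neurod, hbae1 and ins were listed at 0, and myod1 and mylpfa were under 0.07 FPKM. Of the other later markers, gata1a (0.502 and 0.316 FPKM) was not tested and elavl3 (0.943 and 2.18 FPKM, q = 0.0848) was not called. The enveloping layer gene krt8 (69.2 to 106 FPKM) and the yolk syncytial layer gene apoeb (328 to 661 FPKM) were called higher and cldne, of the enveloping layer, lower (34.0 to 20.4 FPKM). Of the same layers krt4 (66.2 and 62.5 FPKM), mxtx2 (104 and 94.5 FPKM) and gata6 (3.59 and 3.58 FPKM) were not called. The part of the called markers in the values below was not tested. In whole embryos, fewer cells expressing a gene and less RNA per cell cannot be told apart.

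Most numbered znf genes were expressed at the dome stage, and few were called different between the conditions. Of the 93 members, 64 were measured, meaning that the authors tested them and that they reached 1 FPKM in their higher condition. This is 68.8% of the members, beside 37.7% of all loci in the table. In other zinc finger families compared below, the share ran from 24% for trim and ftr genes to 100% for zc3h and zfand genes. It was 63.6% for zcchc and 51.4% for zbtb genes, so a high share is not particular to the members. The authors' deposited q called a single one of the 64 higher in SU5402, ZNF672, and a single one lower, znf770. Across all 12757 tested loci 3.58% were called higher and 2.06% lower, 5.64% in all, while the 2 called members make 3.13% of the tested members. Among tested loci with a single gene name, as the members have, 5.41% were called. A p of 0.05 or less before adjustment was held by 5 members, or 7.81% of those tested, beside 11.1% of all tested loci.

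Levels of the measured members spread over almost 2 orders of magnitude in control embryos, from 2.01 to 193 FPKM, with a median of 8.62 FPKM in control and 9.60 in SU5402. The median over all measured loci was 9.94 and 10.3 FPKM. In control embryos 4 members stood at 100 FPKM or more, 12 between 20 and 100, 29 between 5 and 20, and 19 below 5 FPKM. The summed level of all 93 members was 1624 FPKM in control embryos and 1706 FPKM after SU5402. The sum over all loci was also higher after SU5402, at 477306 FPKM in control and 516668 FPKM in SU5402. The 5 highest members held 46.0% and 48.1% of the members' sum.

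The order of the levels was nearly the same in both conditions. All 10 highest members in control were also the 10 highest in SU5402. The Spearman correlation of the levels between conditions was 0.968 over the 64 measured members and 0.947 over all measured loci. It describes values pooled over the 2 samples of each condition. At the top stood znf346 with 193 FPKM in control and 189 in SU5402, znf395a with 178 and 179 FPKM, znf706 with 162 and 194 FPKM, and znf207a with 118 and 117 FPKM. Without replicate values, the order of neighbours such as znf346 and znf395a cannot be set against an error.

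**Figure D1:**
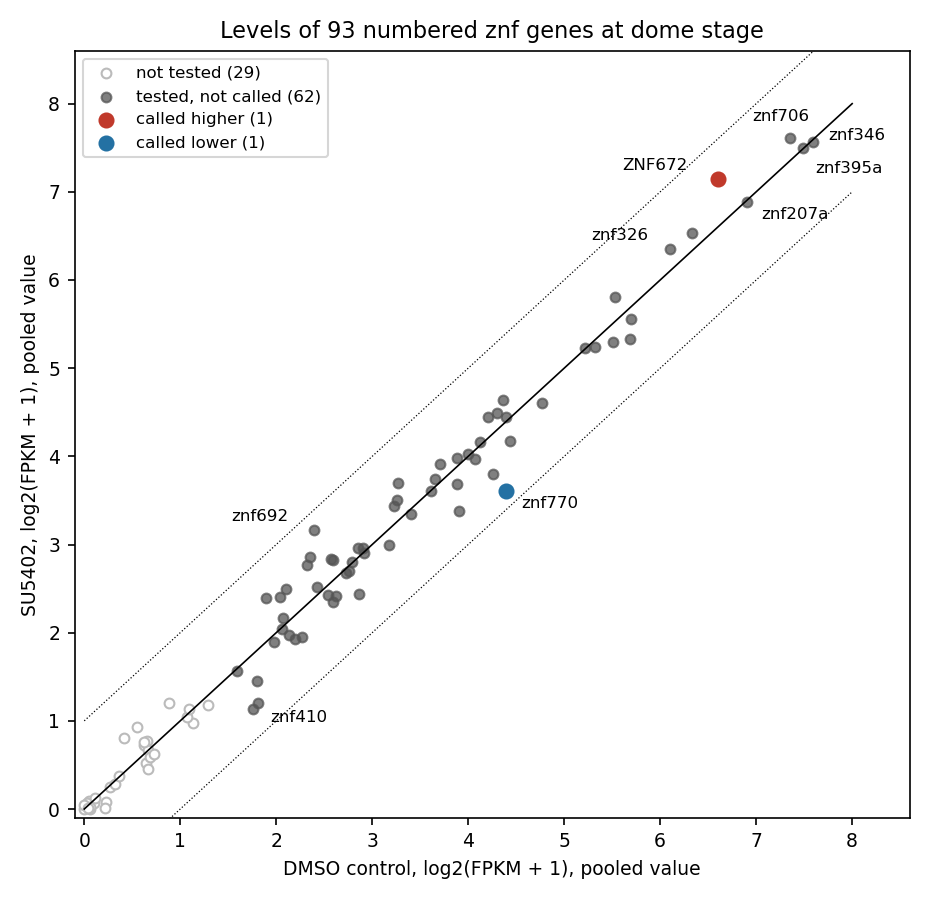
Each point is 1 of the 93 numbered znf genes, with its pooled level in DMSO control embryos on the x axis and in SU5402 embryos on the y axis, both as log2(FPKM + 1). The solid line marks equal levels and the dotted lines a difference of 1 on this scale. All points lie between the dotted lines, with ZNF672 (red, 95.9 and 141 FPKM) and znf770 (blue, 20.1 and 11.2 FPKM) the only called genes and 29 untested genes (open circles) near the origin.

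The changes of the 64 measured members centred on 0. Their median log2 change was 0.002, beside 0.04 over all measured loci with a finite ratio, and 32 members were on each side of 0. From the lower to the upper quartile the members lay between -0.21 and 0.23, a width of 0.44, where the width over all measured loci was 0.54 and over loci within the members' range of mean level 0.52. A log2 change within 0.5 of 0 was held by 53 members, or 82.8%, beside 74.4% of the 12714 measured loci above 0 FPKM in both conditions. No measured member changed by more than 1 on the log2 scale, a size passed by 7.59% of the same 12714 loci, and the extremes were -0.99 for a row of znf395 and 0.91 for znf692. Among measured single-name loci, as the members are, the width was 0.50, with 78.1% within 0.5 of 0 and 5.23% past 1. These widths and shares describe the family and do not test whether it differs from other loci.

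The znf770 transcript, from a gene for a C2H2 zinc finger protein, was the only member called lower. In the authors' deposited table it had 20.1 FPKM in control embryos and 11.2 in SU5402, a fall of 1.79-fold (log2 change -0.84, p = 1e-04, q = 0.000719). Its locus lies on chromosome 20 from 10244836 to 10252216 on the Zv9 build, 1-based, and holds no other row of the table. When the authors' p-values were adjusted by the Benjamini-Hochberg method over all tested loci of the table, a stricter reading than the deposited q, the fall still passed with an adjusted p of 0.0105.

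The ZNF672 transcript was the only member called higher, and it is among the 5 most abundant members. In the authors' deposited table it rose from 95.9 FPKM in control to 141 in SU5402, or 1.47-fold (log2 change 0.56, p = 0.0019, q = 0.00909). Its locus on chromosome 16 runs from 27402689 to 27409745 and is also its own. With the adjustment over the whole table the adjusted p was 0.0860, so the call was lost. By this reading 0 of the 64 members were higher and 1 lower, beside 0.996% and 0.651% of all tested loci, or 1.65% in all. Its symbol was not found in the reference tables of names used here.

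**Figure D2:**
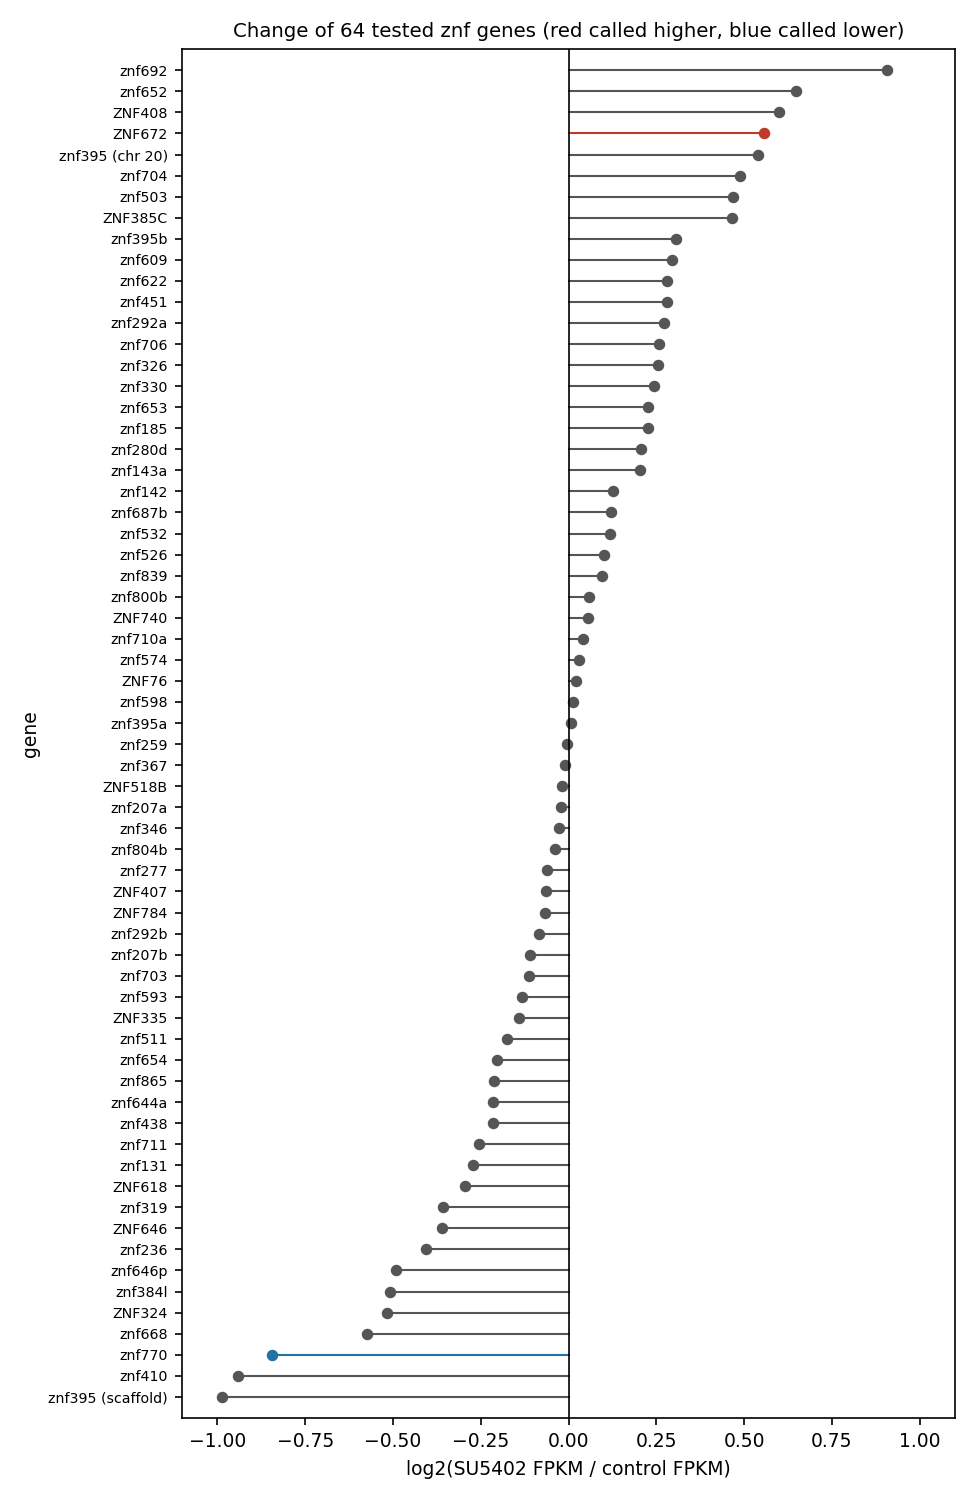
Each line is 1 of the 64 tested numbered znf genes, ordered by its log2 ratio of SU5402 over control FPKM on the x axis, from pooled values with no error. Grey points were not called. ZNF672 (red, 0.56) and znf770 (blue, -0.84) were called. Larger changes of less abundant genes such as znf692 (0.91), znf410 (-0.94) and the scaffold row of znf395 (-0.99) were not.

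The loci around the called genes were examined after their values had been seen. Of the 5 measured loci on each side of znf770, 0 of 10 were called, beside 5.64% of all tested loci. The log2 changes of these 10 lay between -0.35 and 0.46, and the farthest was 2804 kb away. The nearest of them, the proteasome subunit gene psmc6, was 288 kb away, at 19.9 FPKM in control and 15.6 FPKM in SU5402. Around ZNF672 the measured loci were closer together, the farthest 191 kb away, and 1 of 10 was called, beside the same 5.64%. That locus was the farthest, rbfa, whose human relative is a mitochondrial ribosome-binding factor, which rose from 21.2 to 38.1 FPKM (q = 0.0160). The immediate neighbour wu:fe05a04, 1.28 kb from ZNF672, had 59.6 FPKM in control and 60.2 in SU5402. A locus with no gene name, 0.315 kb away on the other side, had 5.21 and 5.78 FPKM. Counts this small do not set either region apart from other loci.

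**Figure D3:**
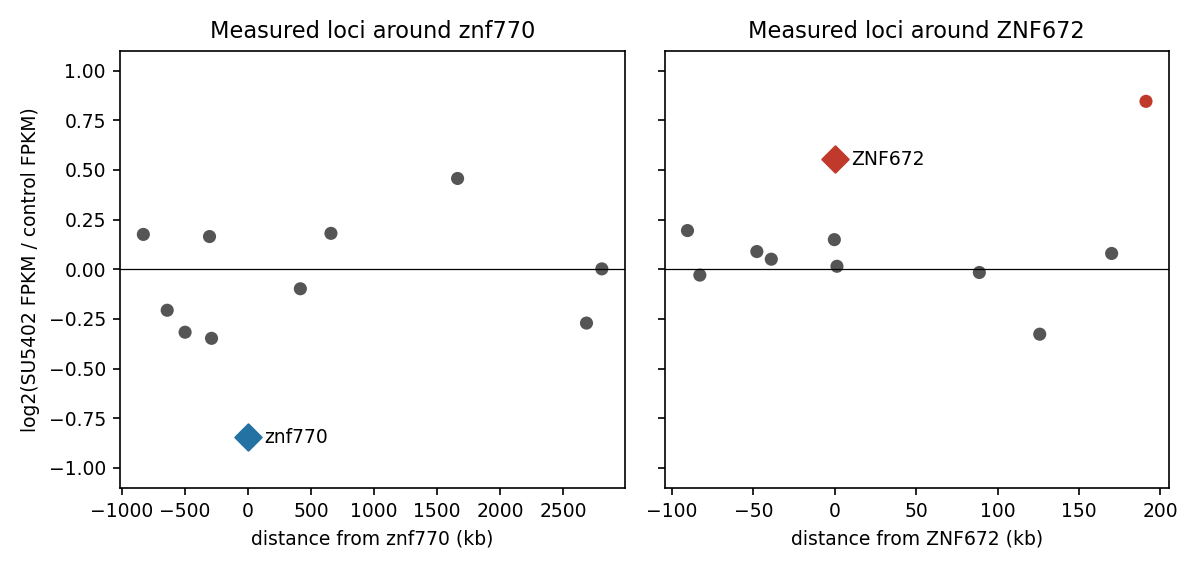
Log2 ratio of SU5402 over control FPKM (y axis) of the 5 measured loci on each side of znf770 (left) and ZNF672 (right) against their distance in kb (x axis). The diamonds are the called znf genes at -0.84 and 0.56, grey circles are uncalled loci and the red circle is rbfa, called higher at 191 kb from ZNF672.

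The members closest to a call in the authors' deposited table were znf646p, ZNF408, znf692, znf410 and the scaffold row of znf395. The znf646p value was 18.1 FPKM in control and 12.9 in SU5402 (q = 0.0646). It shares its assembled locus on chromosome 12, from 30494374 to 30508899, with znf668, which had 14.0 FPKM in control and 9.39 in SU5402 (q = 0.344). Both rows of this locus were lower in SU5402, by -0.49 and -0.57 on the log2 scale, and neither was called. Reads may be split between rows that share a locus, and whether these rows are separate observations was not tested.

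ZNF408, whose human relative is mutated in a disorder of retinal vessels, had 4.12 FPKM in control and 6.24 in SU5402 (q = 0.116). The znf692 gene had 4.26 FPKM in control and 7.99 in SU5402, the largest log2 difference upward among measured members at 0.91, with q = 0.118. Its locus on chromosome 8 holds 4 rows of the table. In the other direction znf410, whose human relative activates the gene of the chromatin remodeler CHD4, had 2.50 FPKM in control and 1.30 in SU5402 (q = 0.138). With a pseudocount of 1 FPKM the log2 difference of znf410 was -0.61 in place of -0.94.

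The changes that the authors called were larger among loci of low level. These sizes cover the 700 of 720 called loci that were above 0 FPKM in both conditions. Below a mean of 5 FPKM, the smallest called change was 1.60-fold and the median called change 2.61-fold. From 5 to below 20 FPKM these were 1.40-fold and 1.97-fold, from 20 to below 100 FPKM 1.35-fold and 1.66-fold, and from 100 FPKM upward 1.35-fold and 1.62-fold. The smallest called change was reached by 2 members in the lowest range, 6 in the next, 0 in the third and 1 in the highest, and 2 of these 9 members were called. The share of all tested loci reaching that size was not computed, so these counts do not set the members apart. In each of these ranges no member, called or not, reached the median called change. The largest member differences in them were 1.98-fold, 1.87-fold, 1.28-fold and 1.47-fold. The median called change is taken over loci selected by their call, and most members were not called. How many of all tested loci reach it was not computed, so it does not show the members' changes to be unusually small. Of the 18 members below a mean of 5 FPKM 0 were called, beside 3.32% of all tested loci at that level. From 5 to below 20 FPKM 1 of 29 members was called, beside 4.73% of loci. From 20 to below 100 FPKM 0 of 12 were called, beside 7.20%, and from 100 FPKM upward 1 of 5, beside 15.0%.

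The members were next grouped by hand-made role lists. Placement is loose for some genes, such as znf750 in the neural and signalling list, and was not checked in these data. Role lists for ribosome and RNA work, mitosis, neural development with BMP or retinoic acid signalling, and chromatin or promoter binding covered 35 of the 93 members, 23 of them measured. The authors' deposited q called 0 of these 23 and 2 of the other 41 measured members, beside 5.64% of all tested loci. Counts this small do not set the lists apart.

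The ribosome and RNA list held the most abundant member. This gene, znf346, encodes a protein that binds double-stranded RNA in mammals, and its level differed by -0.03 on the log2 scale between conditions. The znf326 gene, whose human product links transcription elongation to splicing, had 67.7 FPKM in control and 80.9 in SU5402. Of the genes for factors of the large ribosomal subunit, znf593 (related to yeast Bud20, which acts in its export from the nucleus) had 50.7 FPKM in control and 46.2 in SU5402. The gene znf622, related to yeast Rei1 of late cytoplasmic subunit maturation, had 45.1 and 54.8 FPKM. These 2 factors of the same pathway stood on opposite sides of 0, and neither was called.

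The gene znf598, for the ubiquitin ligase that marks collided ribosomes in human cells, had 36.2 FPKM in control and 36.5 in SU5402. The level of znf259, now named zpr1, was 11.2 FPKM in both conditions; in mammals its protein binds the translation factor eEF1A and the intracellular part of the EGF receptor. ZNF385C was the least abundant measured gene of the list with 3.10 and 4.28 FPKM, and znf706 the one with the largest difference in FPKM, from 162 to 194 (q = 0.363). The list's median log2 change over 8 measured members was 0.13, beside 0.04 over all measured loci.

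In the mitosis list, znf207a and znf207b encode relatives of human BuGZ, a microtubule-binding protein that loads the checkpoint protein Bub3 onto kinetochores. The znf207b copy had 15.8 FPKM in control and 14.6 in SU5402, so that znf207a was 7.50-fold the more abundant in control and 7.97-fold in SU5402, per length. ZNF365, also in this list, was not tested and stayed under 0.6 FPKM.

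Neural and signalling members were mostly near or below the limit of measurement. The paired genes znf703 and znf503, also called nlz1 and nlz2, encode corepressors that pattern the zebrafish hindbrain. The znf503 level was 8.66 FPKM in control and 12.0 in SU5402 (log2 change 0.47, q = 0.171), and that of znf703 was 2.93 and 2.71 FPKM (q = 0.848). The other measured gene, znf804b, had 2.01 and 1.96 FPKM. The others were not tested: ZNF462 and znf804a lay between 0.5 and 0.8 FPKM, while znf536, a neural gene, and znf750, a regulator of epidermal differentiation in human skin, lay below 0.1 FPKM in both conditions. ZNF423, a partner of BMP-activated Smad proteins in mammals, is not a member because its row joins the names ZNF423 and znf423; that row had 6.43 FPKM in control and 6.62 in SU5402 (q = 0.945).

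Of the chromatin and promoter factors, 7 of 10 measured genes lay below 10 FPKM in control. The znf143a gene, for an activator of small nuclear RNA and selenocysteine tRNA genes, had 18.7 FPKM in control and 21.5 FPKM in SU5402; its relative ZNF76 had 5.90 and 5.98 FPKM. Its paralog znf143b is joined in 1 row with the cell cycle kinase gene wee1 and was left out. The BTB zinc finger gene znf131 had 20.7 and 17.1 FPKM, and znf644a, whose human relative binds the histone methyltransferases G9a and GLP, 13.8 and 11.9 FPKM. ZNF335, found in histone H3K4 methyltransferase complexes in mammals, had 4.83 FPKM in control and 4.38 in SU5402. It lies in an assembled locus of 17 rows. The znf711 gene, whose human relative is mutated in an X-linked intellectual disability, had 5.16 and 4.32 FPKM, and znf384l had 6.27 and 4.41 FPKM. The genes znf532 (4.37 and 4.74 FPKM) and znf687b (6.23 and 6.78 FPKM) encode partners of the chromatin reader ZMYND8, and another such partner, znf592, was not tested at 1.12 and 1.20 FPKM. The median log2 change over the 10 measured genes was -0.18, with 6 below 0 and 4 above.

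**Figure D4:**
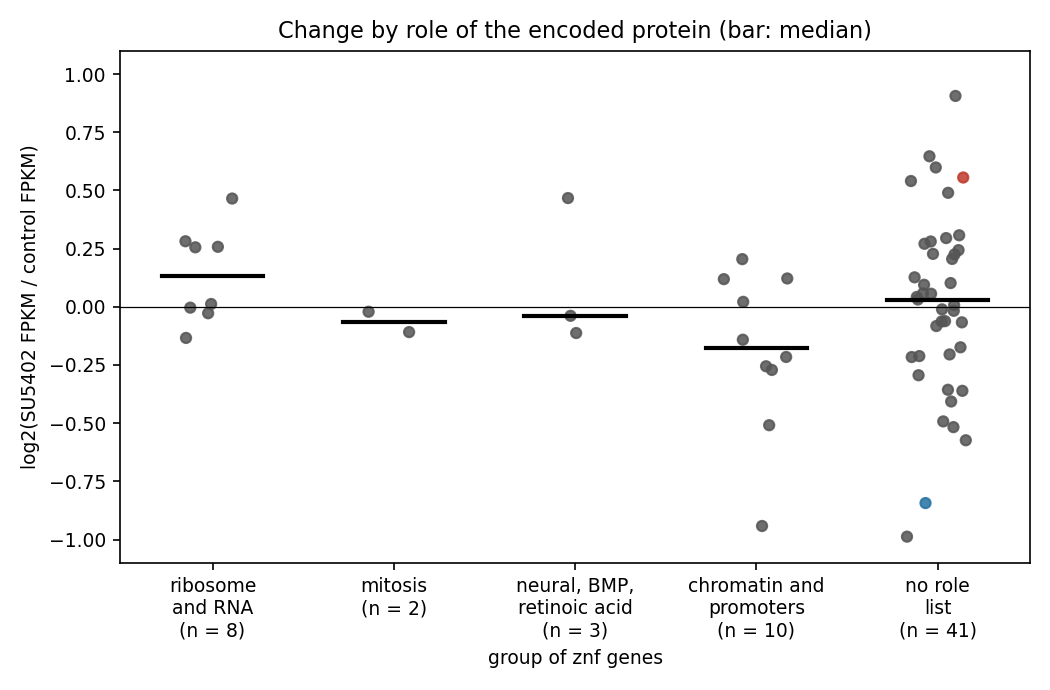
Log2 ratio of SU5402 over control FPKM (y axis) of the 64 tested numbered znf genes, split by hand-made role list (x axis), with the median of each group as a bar. The medians are 0.13, -0.07, -0.04, -0.18 and 0.03 from left to right, and both called genes (red and blue) are in the group without a listed role.

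Several numbers are carried by more than 1 gene, and most genes of the same number stood at different levels. They were grouped by number alone, which does not make them copies of 1 gene. In control embryos znf395a, on chromosome 17, had 178 FPKM, while znf395b on chromosome 20 had 4.95 FPKM. The znf292b gene, with 38.9 FPKM in control and 36.8 in SU5402, was 4.54-fold above znf292a in control, at 8.58 and 10.3 FPKM. ZNF646 on chromosome 19 had 50.4 FPKM in control and 39.2 in SU5402, above znf646p. The znf644b gene, not tested, had 0.245 FPKM in control, 56.4-fold below znf644a. For the numbers znf687 and znf804 likewise 1 gene was measured and the other was not tested, at 1.45 FPKM for znf687a and 0.652 FPKM for znf804a in control. Of znf385a, znf385b, ZNF385C and ZNF385D, only ZNF385C was measured, and neither znf512 nor ZNF512B was.

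The symbol znf395 stands on 2 rows, whose differences had opposite signs. The row on chromosome 20, from 35280011 to 35322631, had 4.01 FPKM in control and 5.83 in SU5402 (q = 0.269). The row on an unplaced scaffold (Zv9_scaffold3564, from 88053 to 129500) had 2.38 FPKM in control and 1.20 in SU5402 (q = 0.159). Their log2 differences were 0.54 and -0.99, and neither was called. Added together the rows gave 6.39 FPKM in control and 7.03 in SU5402, a log2 difference of 0.14. If the rows are near-identical copies, reads could have been split between them, so each row's value is uncertain.

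The members were spread over 23 of the 25 chromosomes, with none on chromosomes 15 and 24 and 2 on unplaced scaffolds. The left-out row with ZNF41 lies on chromosome 15. Chromosome 16 carried the most, with 9 members of which 7 were measured, followed by chromosomes 19 and 20 with 7 each. Chromosome 4, whose long arm is known for large arrays of zinc finger genes, carried 2765 loci of the table but only 3 members. These were znf800b (6.51 FPKM in control, 6.77 in SU5402), ZNF324 (2.48 and 1.74 FPKM, q = 0.403) and the untested ZNF146 (0.331 and 0.753 FPKM). The rule takes numbered znf symbols alone, so zinc finger genes there under another name, or without one, were not counted. The loci of znf800b and ZNF324 start far apart, at 3326205 and 57308896, and their place relative to the arrays was not examined. Of all loci on chromosome 4, 25.6% were measured, and of those tested 3.96% were called, beside 38.8% and 5.74% for the rest of the table. The median log2 change of the 2 measured members there was -0.23, that of all measured loci on the chromosome 0.07, and that of the 62 measured members elsewhere 0.002. A median of 2 genes rests on each of them, and the value was 0.06 with znf800b alone.

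Few members were close neighbours. Of adjacent members on a chromosome, 3 pairs lay within 100 kb, and the median gap was 7268 kb. Besides znf646p and znf668, ZNF407 and znf236 on chromosome 16 were 4.09 kb apart. ZNF407 had 5.77 FPKM in control and 5.52 in SU5402, while znf236 had 3.81 and 2.87 FPKM. On the same chromosome znf526 and znf574 were 56.4 kb apart and had nearly equal levels, 13.8 and 15.0 FPKM in control and 14.8 and 15.3 FPKM in SU5402. None of these genes was called. The pairs were chosen by distance after the values had been seen.

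The rule that chose genes for their level, change, q or role left out 29 measured members, some of them named above for a shared number or their position. In the authors' deposited table their control levels ran from 2.48 to 44.5 FPKM and their log2 changes from -0.52 to 0.49, with 15 above 0 and 14 below, and the lowest q among them was 0.230. The 29 members that were not tested had at most 1.45 FPKM. Of these, 24 were under 1 FPKM in both conditions, ZNF488 was listed at 0 in both, and ZNF219 and znf648 were listed at 0 in 1 condition and under 0.05 FPKM in the other. The other 5 reached 1 FPKM without being tested, namely znf687a, ZNF414, znf592, znf296 and znf513. ZNF541, a gene of meiosis in the mouse, was likewise untested, at 0.465 FPKM in control and 0.908 FPKM in SU5402.

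Genes with symbols of other zinc finger families were set beside the numbered ones, by counts and medians alone. They were taken by symbol only, and whether each of them, such as zbtb8os in the zbtb group, encodes a zinc finger was not checked. The authors' deposited q called 0 of 19 tested zbtb genes, 0 of 13 zc3h genes, 0 of 15 zdhhc genes, 0 of 30 trim and ftr genes, 0 of 7 prdm genes, 0 of 7 zcchc genes and 0 of 5 gata genes, beside 5.64% of all tested loci. Of 15 klf and sp genes 4 were called, 3 higher (sp3a, klf6a and klf2a) and 1 lower (sp5l). Of 7 zfand genes, zfand6 was called higher (49.9 to 120 FPKM) and zfand2a lower (30.1 to 18.8 FPKM). Of 3 tested zic and gli genes, zic2b and zic2a were called lower. With the adjustment over the whole table only zfand6 and zic2b of these calls remained. The Wnt-responsive gene sp5l went from 2.77 to 0.389 FPKM and the general promoter factor gene sp3a from 25.1 to 55.8 FPKM. The median log2 change was 0.10 for zbtb, 0.16 for klf and sp, 0.13 for zc3h, 0.02 for trim and ftr, 0.06 for prdm, 0.27 for zcchc and 0.19 for gata genes, beside 0.002 for the numbered znf genes. It was -0.004 for zdhhc and -0.21 for zfand genes, and -5.15 for the 3 zic and gli genes. Differences between these families were not tested.

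**Figure D5:**
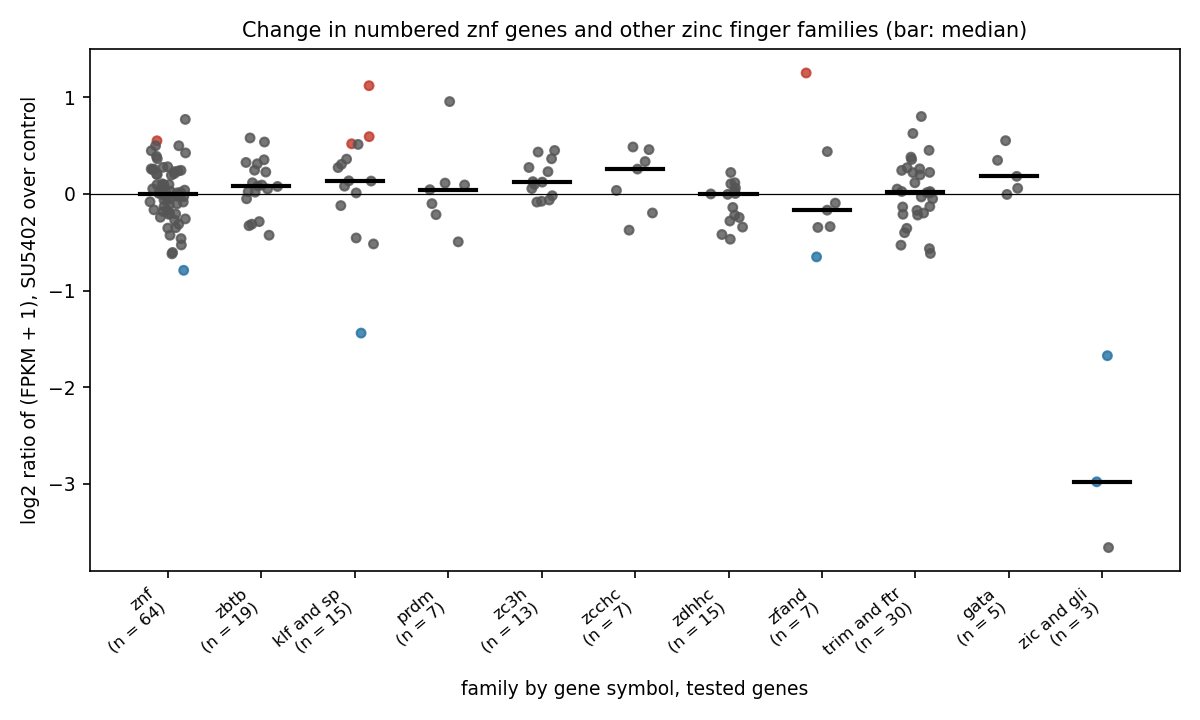
Log2 ratio of SU5402 over control levels, each with 1 FPKM added (y axis), of tested numbered znf genes and 10 other groups. The groups (x axis) were taken by the symbols of zinc finger families, and bars are medians. Red points were called higher and blue ones lower; the 64 znf genes lie within 1 of 0 and the zic genes far below it.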

How the data were processed

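The RNA-seq data were used as 1 table of the authors' comparison of 2 SU5402 with 2 DMSO control samples. Reads had been processed on Zv9 (danRer7) with Cuffdiff, Cufflinks, Picard and TopHat2, per the submitters' processing notes, whose versions were not given in the sources used here. The authors' deposited FPKM is 1 value per condition, scaled to transcript length and library, so it cannot show a change in total RNA. Their deposited log2 change is that of SU5402 over control and was within 0.001 of the FPKM ratio for all 64 tested members. The authors' p-value and q-value were used unchanged, and the deposited score of the test was not used. For the largest p that was called, 0.0151, the authors' q was 0.04996, while a Benjamini-Hochberg adjustment over the 12757 tested loci gave 0.268; that adjustment is the stricter reading. It was tested on simulated data.

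Members, role lists, families and named genes were chosen with earlier results of these data known. Named genes were called members, the 5 lowest q above 0.05, the 10 highest levels, the 5 largest uncalled rises and falls with 1 FPKM added, and measured role list genes; others were named after their values were seen. Starts were raised by 1, since 9 rows start at 0. Of the members, 85 matched a symbol in the reference tables, which serve only for names. Calculations used Python 3.11.15 with pandas 2.3.3 and numpy 2.4.6.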

Additional observations from a re-analysis of the deposited data

How the results depend on the processing

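The count of members called lower was 1 with a q of 0.01, with the adjustment over the whole table, without members that share a locus, at 5 FPKM or more and with lower-case symbols only. The count called higher was 0 in place of 1 with the adjustment over the whole table, where ZNF672 was lost, and 0 with lower-case symbols only, which leave ZNF672 out. The median log2 change of all measured members stayed between -0.02 and 0.02. On chromosome 4 the median was 0.057 in place of -0.23 both at 5 FPKM or more and with lower-case symbols, where znf800b alone is left. The measured members numbered 49 at 5 FPKM or more and 52 in lower case. No paired analysis was possible because the deposited table pools the replicates, and for the same reason no replicate could be left out. Depth is unknown, and the size of change that these data could detect was not estimated.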
